A study of Homo sapiens with 6 samples.

Results

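Serpins are a superfamily of proteins that share one fold, in which an exposed reactive loop acts as bait for a protease. A serpin gene was counted as a member when a probe set of the array carried its symbol, beginning with SERPIN, and RefSeq lists it as protein coding. This gave 29 of the 19775 genes with a probe set of 1 symbol, read by 47 probe sets, besides 1 probe set that carries both SERPINB3 and SERPINB4 and was read separately. SERPINA2 and SERPINB9P1, which RefSeq lists as pseudogenes, were left out. Of the 29 genes, 20 had 1 probe set and 9 had several.

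Most members are suicide inhibitors of serine proteases, and cleavage of the loop traps the protease in a covalent complex, while some members have no inhibitory role and serve as hormone carriers or chaperones. The clades, named by letters, follow sequence relationship. Clade A holds secreted plasma proteins made mainly by the liver, clade B holds intracellular inhibitors that are common in stratified epithelia and leukocytes, and the other clades include regulators of clotting, complement and the extracellular matrix.

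The serpin genes were examined in the CRB3-expressing derivative of MCF-10A, a line of human mammary epithelial cells that is immortal but not transformed, against its vector control. CRB3 encodes a transmembrane polarity protein, and the CRB3 constructs of the study carried an amino-terminal myc tag. One group overexpressed Crb3 from a retrovirus and the vector control group carried the pNG vector, and both groups were selected with puromycin, grown in normal MCF-10 medium and harvested as dividing monolayers at 70% confluence. Their total RNA was read on 6 Affymetrix U133 Plus arrays, 3 for CRB3-expressing cells and 3 for vector control cells. No source used here says whether each replicate was infected on its own, so p-values stand for the spread among these samples alone, which may be technical, and 3 arrays per group limit the precision.

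Each gene was read in its brightest probe set, that with the highest mean over the 6 arrays, and all values are log2 RMA values, the authors' normalized intensities on a log2 scale. These are not detection calls, and the values of different probe sets do not order the genes by abundance. A gene was called at an adjusted p under 0.05 from limma and a fold change above 1.5, with CRB3-expressing cells over vector control cells.

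CRB3 itself averaged 12.11 ± 0.10 in CRB3-expressing cells, against 7.78 ± 0.17 in vector control cells (SD, n = 3 each), a 20.1-fold difference. Array medians lay between 5.84 and 5.88, and arrays of 1 group correlated at 0.997 to 0.998 across probe sets (Pearson), those of different groups at 0.994 to 0.996. The hybridization controls averaged 10.52 to 10.60 on the CRB3-expressing arrays and 10.59 to 10.98 on the vector control arrays, with the highest value on vector control replicate 1. The 8 measured markers of mammary epithelium had log2 means of 9.06 or more in both groups. Of these, 3 (KRT14, KRT8 and CDH1) were called higher in CRB3-expressing cells, as were 1.43% of all genes. The other 5 were not called, with log2 fold changes of 0.38 for EPCAM, 0.36 for KRT18, 0.0083 for EGFR, -0.025 for ITGB4 and -0.040 for KRT5. None of the 3 measured markers of endothelium, the 3 of leukocytes and the 5 of hepatocytes was called. Means under the array medians were seen for 1 of the endothelial, 2 of the leukocyte and 3 of the hepatocyte markers. The hepatocyte marker ALB averaged 3.75 in CRB3-expressing cells, against 3.79 in vector control cells, and TTR 6.81 against 6.91. The leukocyte marker CD14 averaged 8.27 in CRB3-expressing cells, against 8.32 in vector control cells. The summed log2 values of the hepatocyte markers ran from 26.8 to 27.1 in CRB3-expressing cells, against 26.5 to 27.2 in vector control cells. Of 5 fibroblast markers, DCN was lower, and it is described with the cofactors. The part of these markers in the serpin values was not tested.

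Between CRB3-expressing and vector control cells, 4 serpin genes changed, 2 in each direction. SERPINB7 was higher by 2.94-fold and SERPINB1 by 1.97-fold, and both are intracellular serpins of clade B. SERPINE2 was lower by 1.99-fold and SERPINA1 by 1.75-fold, and both encode secreted inhibitors. The other 25 serpin genes, including the epithelial serpin SERPINB5 and the collagen chaperone SERPINH1, did not pass both thresholds, and their log2 fold changes lay between -0.30 and 0.30. The 2 genes called higher were 6.90% of the family, while 1.43% of all genes were called higher, and the 2 called lower were another 6.90%, while 0.465% of all genes were called lower. Over probe sets, 4 of 47 were higher and 3 were lower, while among all probe sets 0.948% were higher and 0.363% were lower. The median log2 fold change of the 29 genes was 0.045, against 0.0066 over all genes, and the median size without sign was 0.10, against 0.081 over all genes, so most of the family lay near the rest of the array. Both shares of called serpins were above the background, but each rests on 2 genes and is a description without a test of the family. Among the 25 genes not called, 4 (SERPINA3, SERPINI1, SERPINB13 and SERPINF2) had an unadjusted p under 0.05 from limma. With the called genes this makes 8 of 29, while 18.8% of all genes had such a p. In such RNA of a whole culture, fewer cells that express a gene and less RNA per cell cannot be told apart.

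**Figure D1:**
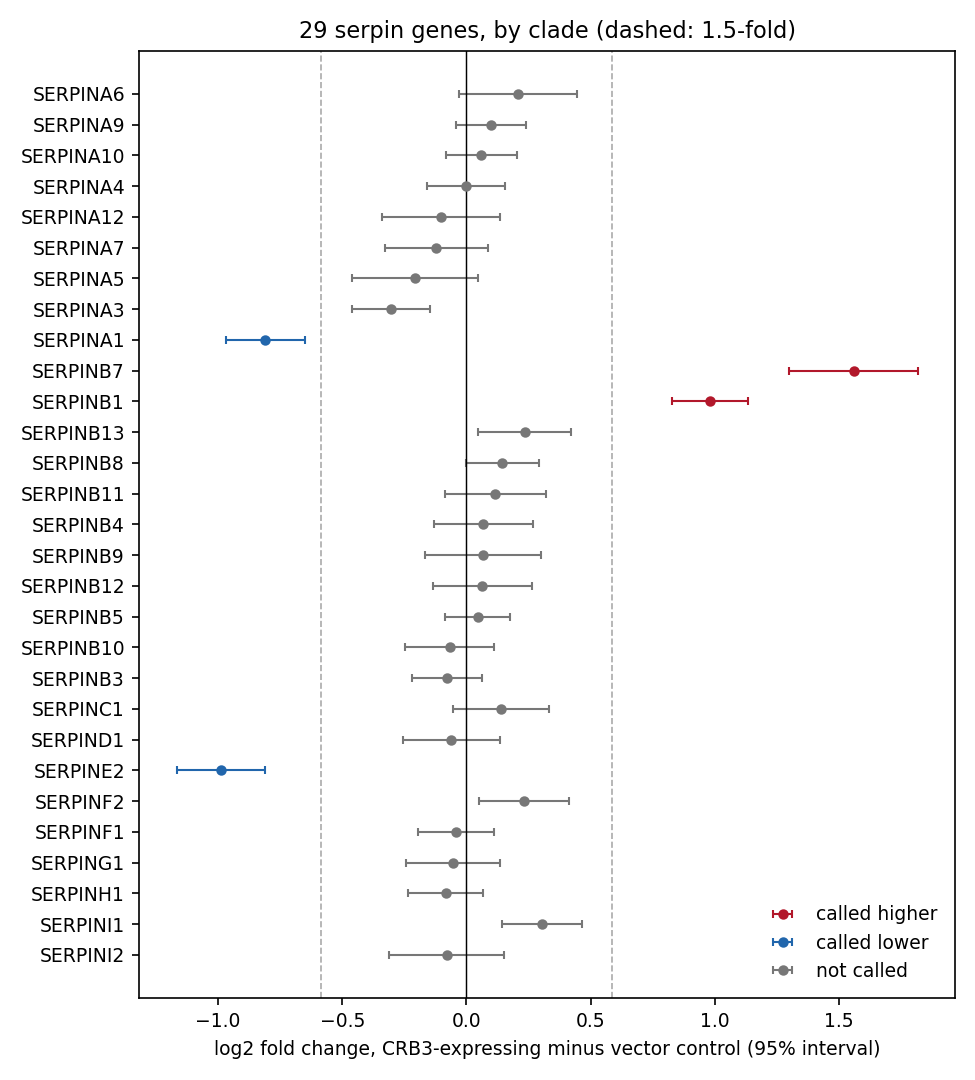
The x axis gives the log2 fold change of CRB3-expressing over vector control cells for the 29 serpin genes (y axis, grouped by clade), each in its brightest probe set; points are estimates, bars are 95% intervals from limma and dashed lines mark 1.5-fold. SERPINB7 and SERPINB1 (red) lie right of the dashed line and SERPINE2 and SERPINA1 (blue) left of it, and the 25 other genes (grey) lie between -0.30 and 0.30.

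The promoters of the 4 changed genes are shown because these genes carry the calls of the family, 2 in each direction. They come from RefSeq (GRCh38.p14), where 23 of the 29 members have an entry, and run from 250 bases before to 50 bases after the annotated start, 5′ to 3′ on the strand of the gene. SERPINB7 lies at chr18:63752807-63753106 on the plus strand, and SERPINB1 at chr6:2841814-2842113, SERPINE2 at chr2:224031429-224031728 and SERPINA1 at chr14:94390586-94390885 on the minus strand. Capitals mark matches, on either strand, to the GC box GGGCGG, the E-box letters CACCTG and the CCAAT box CCAAT, and matches to different motifs do not overlap in these windows. CCAAT was added to the motifs searched after the SERPINE2 sequence had been seen, and the 2 GC box matches of SERPINB1 share a base.
SERPINB7: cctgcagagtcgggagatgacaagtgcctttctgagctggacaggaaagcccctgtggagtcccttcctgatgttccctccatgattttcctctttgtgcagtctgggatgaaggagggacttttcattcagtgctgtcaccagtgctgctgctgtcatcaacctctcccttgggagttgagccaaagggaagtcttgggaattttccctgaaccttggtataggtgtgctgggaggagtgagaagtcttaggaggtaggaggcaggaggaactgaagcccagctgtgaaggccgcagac
SERPINB1: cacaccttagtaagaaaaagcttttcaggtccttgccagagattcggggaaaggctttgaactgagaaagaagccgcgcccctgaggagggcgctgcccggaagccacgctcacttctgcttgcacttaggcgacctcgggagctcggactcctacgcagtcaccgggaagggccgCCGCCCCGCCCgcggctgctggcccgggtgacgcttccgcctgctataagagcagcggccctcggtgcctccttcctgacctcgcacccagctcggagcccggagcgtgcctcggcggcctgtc
SERPINE2: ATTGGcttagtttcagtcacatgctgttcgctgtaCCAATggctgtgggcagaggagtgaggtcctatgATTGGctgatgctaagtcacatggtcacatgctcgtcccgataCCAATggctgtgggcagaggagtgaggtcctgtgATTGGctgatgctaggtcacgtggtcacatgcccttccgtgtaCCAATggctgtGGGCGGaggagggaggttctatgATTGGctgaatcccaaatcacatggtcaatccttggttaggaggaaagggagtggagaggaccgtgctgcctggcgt
SERPINA1: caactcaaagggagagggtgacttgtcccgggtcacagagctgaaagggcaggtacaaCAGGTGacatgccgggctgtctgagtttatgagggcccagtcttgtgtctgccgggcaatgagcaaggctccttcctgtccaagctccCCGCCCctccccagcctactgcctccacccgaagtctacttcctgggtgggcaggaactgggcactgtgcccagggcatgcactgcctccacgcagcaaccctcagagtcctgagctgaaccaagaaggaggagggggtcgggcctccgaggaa

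No motif was found in all 4 windows, and SERPINB7 held none. SERPINE2 held 7 CCAAT matches, alternating between the strands within a repeated stretch, and 7 of 27305 RefSeq promoters of the same length (0.0256%), itself included, held at least as many. Both the motif and the count were taken from this sequence after it was seen, so the share is a description and not a test. At least 1 match to CCAAT was present in 35.7% of all promoters, and in none of the other windows shown. GC box matches numbered 2 in SERPINB1, 1 in SERPINE2 and 1 in SERPINA1, with at least 1 in 44.6% of all promoters. SERPINA1 also had 1 match to CACCTG, which is found in 20.6% of all promoters. No match to the TATA box TATAAA (12% of all promoters) or the AP-1 site TGANTCA (7.76%) was found in the 4 windows. These matches describe letters only, and which start sites MCF-10A cells use was not measured.

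Among the inhibitors of clade B, SERPINB7 showed the larger rise. SERPINB7, also called megsin, is expressed in the upper epidermis, and its loss causes a hereditary keratosis of palms and soles. Its log2 values were 8.22, 8.33 and 7.99 on the CRB3-expressing arrays, against 6.41, 6.71 and 6.75 on the vector control arrays. The groups did not overlap, and the lowest CRB3-expressing array lay more than 1 log2 unit above the highest vector control array. The means were 8.18 ± 0.17 in CRB3-expressing cells, against 6.62 ± 0.18 in vector control cells (SD, n = 3 each), or 1.56 as a log2 fold change (limma, SE 0.11 and adjusted p = 9.87e-05). With its 95% interval, the fold change was 2.94 (2.46 to 3.52). The array has 1 probe set for SERPINB7, of a type that can be shared between transcripts, so no second reading was at hand.

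SERPINB1 encodes an intracellular inhibitor of neutrophil elastase, cathepsin G and related proteases. In its brightest probe set it had log2 values of 10.46, 10.55 and 10.48 on the CRB3-expressing arrays, against 9.44, 9.51 and 9.60 on the vector control arrays, and the groups did not overlap. The log2 fold change was 0.98 (limma, SE 0.067 and adjusted p = 6.61e-05), or 1.97-fold with a 95% interval of 1.78 to 2.19. Of the other 3 probe sets, 2 were also called higher, with log2 fold changes of 0.92 (SE 0.081) and 0.90 (SE 0.12). The dimmest averaged 6.93 ± 0.13 in CRB3-expressing cells, against 6.78 ± 0.029 in vector control cells (SD, n = 3 each), and was not called although the groups did not overlap (log2 fold change 0.15, adjusted p = 0.399 from limma).

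The remaining 9 genes of clade B did not pass both thresholds. SERPINB5 encodes maspin, a non-inhibitory serpin of mammary and other epithelia that was described as a tumour suppressor. Its log2 values were 12.42, 12.43 and 12.42 on the CRB3-expressing arrays, against 12.40, 12.39 and 12.34 on the vector control arrays. The arrays of each group lay close together and did not overlap, but the distance was 0.045 on the log2 scale (limma, SE 0.058 and adjusted p = 0.766). The 95% interval of the fold change ran from 0.94 to 1.13, so a 1.5-fold change lay outside it in either direction.

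SERPINB8, an inhibitor of furin-like and trypsin-like proteases, had log2 values of 9.46, 9.57 and 9.59 on the CRB3-expressing arrays, against 9.35, 9.44 and 9.38 on the vector control arrays. All CRB3-expressing arrays lay above the vector control arrays by a small margin, and the log2 fold change of 0.14 (limma, SE 0.065 and adjusted p = 0.321) did not pass the test. In a second, dimmer SERPINB8 probe set the groups overlapped, with 6.27 in CRB3-expressing cells, against 6.30 in vector control cells (log2 fold change -0.031). SERPINB13, a cathepsin inhibitor of keratinocytes also called headpin, is read by 6 probe sets. The brightest averaged 6.52 ± 0.054 in CRB3-expressing cells, against 6.29 ± 0.14 in vector control cells (SD, n = 3 each; log2 fold change 0.23, adjusted p = 0.198 from limma), and the other 5 had log2 fold changes between 0.042 and 0.10.

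SERPINB3 and SERPINB4, the squamous cell carcinoma antigens, are near-identical paralogs, and a probe set of one may also read the other. The brighter SERPINB3 probe set averaged 5.21 in CRB3-expressing cells, against 5.29 in vector control cells, and the SERPINB4 probe set averaged 3.45 in CRB3-expressing cells, against 3.39 in vector control cells. The probe set listed for both genes averaged 5.19 in CRB3-expressing cells, against 5.05 in vector control cells (log2 fold change 0.14, adjusted p = 0.569 from limma). None was called, and all lay under the array medians. The same held for SERPINB9, an inhibitor of granzyme B, and for SERPINB10, SERPINB11 and SERPINB12, with log2 fold changes between -0.068 and 0.12.

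**Figure D2:**
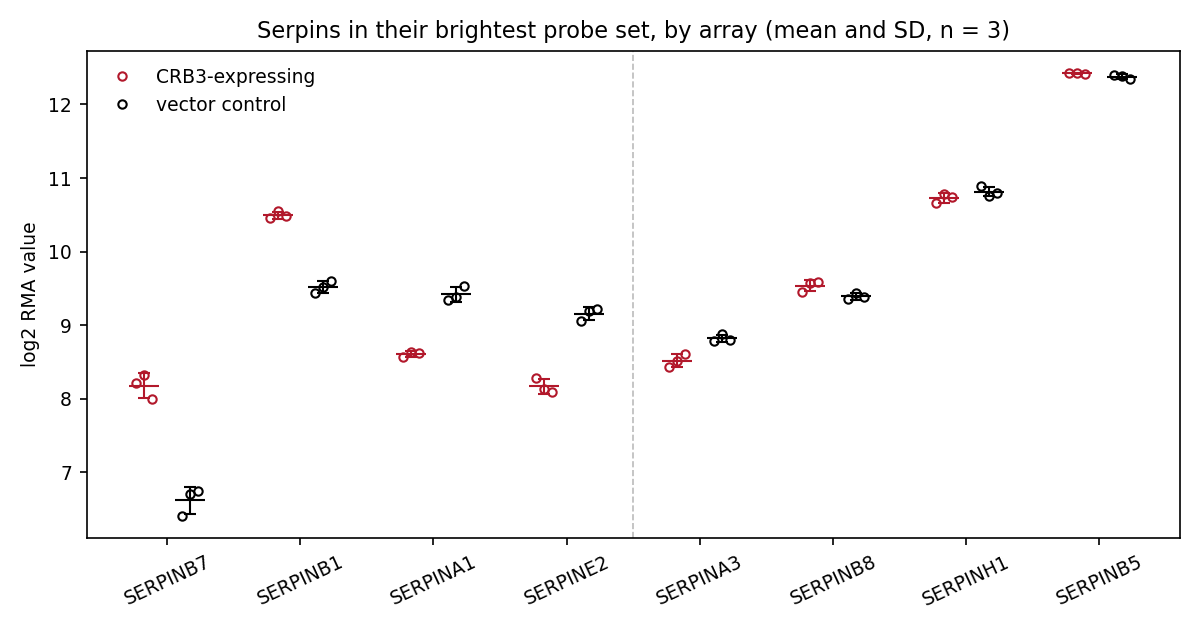
Log2 RMA value (y axis) on each CRB3-expressing array (red) and each vector control array (black) for the serpin genes given in full (x axis); circles are arrays and bars the mean and SD (n = 3). Left of the dashed line are the 4 called genes, whose groups stand apart, such as SERPINB7 at 8.18 in CRB3-expressing cells against 6.62 in vector control cells, and right of it genes that were not called, such as SERPINB5 at 12.42 in CRB3-expressing cells against 12.38 in vector control cells.

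Of the 9 genes of clade A, SERPINA1 fell and the other 8 were not called. SERPINA1 encodes antitrypsin, the main inhibitor of neutrophil elastase in plasma, which epithelia also make. Its brightest probe set had log2 values of 8.57, 8.64 and 8.62 on the CRB3-expressing arrays, against 9.34, 9.38 and 9.53 on the vector control arrays. Every CRB3-expressing array lay under every vector control array, and the log2 fold change was -0.81 (limma, SE 0.070 and adjusted p = 0.000276). The second brightest probe set fell by 0.97 on the log2 scale (limma, SE 0.085 and adjusted p = 0.000305). The other 2 lay under the array medians and were not called, with log2 fold changes of -0.081 and 0.13. Both called probe sets are of a type that can be shared between transcripts. In the probe sets not of that type, the brightest of which averaged 5.27 in CRB3-expressing cells, against 5.35 in vector control cells, no change of SERPINA1 was called.

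SERPINA3 encodes antichymotrypsin, an acute phase inhibitor of cathepsin G and mast cell chymase. It had log2 values of 8.43, 8.51 and 8.61 on the CRB3-expressing arrays, against 8.79, 8.88 and 8.79 on the vector control arrays, with no overlap. The log2 fold change of -0.30 (limma, SE 0.070 and adjusted p = 0.0526) missed both thresholds. For the plasma inhibitors SERPINA4, SERPINA5 and SERPINA10, the hormone carriers SERPINA6 (cortisol) and SERPINA7 (thyroxine), the adipokine SERPINA12 and the B cell serpin SERPINA9, log2 fold changes ran from -0.21 for SERPINA5 to 0.21 for SERPINA6.

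SERPINE2, the single measured gene of clade E, encodes protease nexin, a secreted inhibitor of thrombin, urokinase and tissue plasminogen activator that binds glycosaminoglycans of the cell surface. Its brightest probe set had log2 values of 8.29, 8.13 and 8.09 on the CRB3-expressing arrays, against 9.05, 9.20 and 9.22 on the vector control arrays. The groups did not overlap, and the log2 fold change was -0.99 (limma, SE 0.078 and adjusted p = 0.000158), which leaves 0.50 of the vector control level (95% interval 0.45 to 0.57). A second, dim probe set averaged 4.11 in CRB3-expressing cells, against 4.10 in vector control cells, and was not called. Against a change of 1.5-fold in place of no change (limma's treat), SERPINB1 and SERPINB7 were still called, while the adjusted p was 0.0763 for SERPINE2 and 0.926 for SERPINA1.

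**Figure D3:**
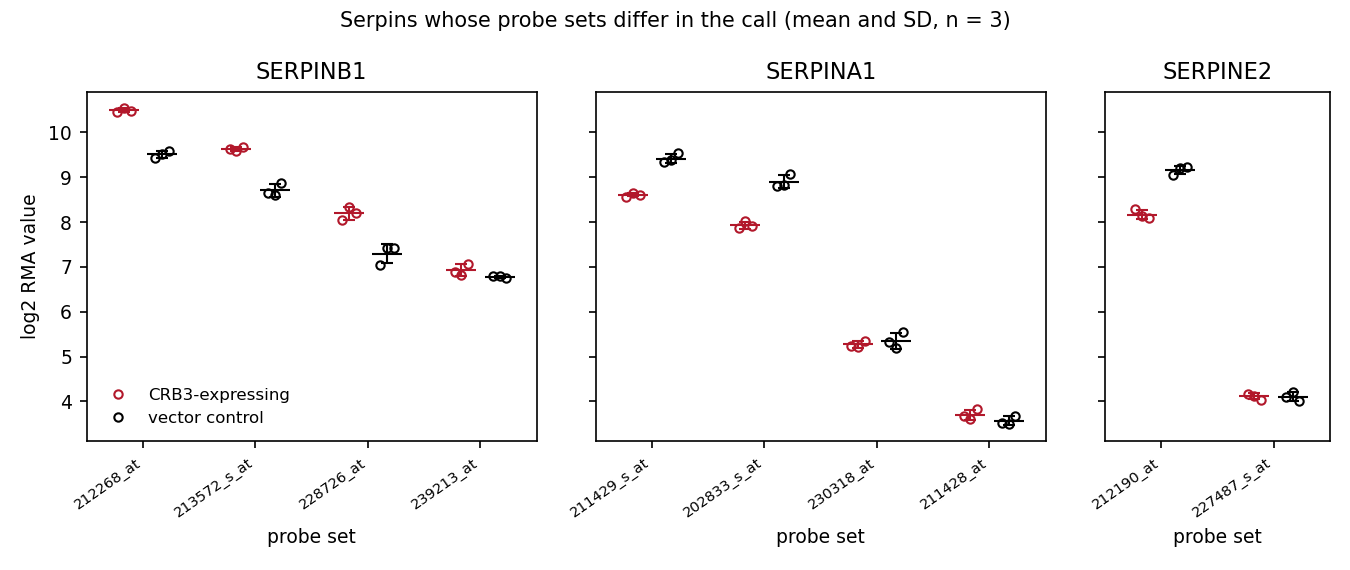
Log2 RMA value (y axis) of every probe set (x axis, in falling order of brightness) of SERPINB1, SERPINA1 and SERPINE2 on the CRB3-expressing arrays (red) and the vector control arrays (black); circles are arrays and bars the mean and SD (n = 3). The change was called in 3 of 4 probe sets for SERPINB1, in 2 of 4 for SERPINA1 and in 1 of 2 for SERPINE2, and the groups lie close to each other in the dimmer ones.

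SERPINH1, a chaperone of the endoplasmic reticulum that binds procollagen and inhibits no protease, was the single measured gene of clade H. Its log2 values were 10.66, 10.79 and 10.74 on the CRB3-expressing arrays, against 10.89, 10.76 and 10.80 on the vector control arrays, and the groups overlapped. The fold change was 0.94 with a 95% interval of 0.85 to 1.05 (adjusted p = 0.596 from limma). SERPINI1 encodes neuroserpin, an inhibitor of tissue plasminogen activator best known in neurons, and is singled out after its values were seen. It had log2 values of 7.39, 7.18 and 7.25 on the CRB3-expressing arrays, against 6.94, 6.99 and 6.99 on the vector control arrays. There was no overlap, and the log2 fold change of 0.30 (limma, SE 0.071 and adjusted p = 0.0547) missed both thresholds.

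Apart from SERPINE2, the serpins named here for clotting, fibrinolysis and complement were not called. SERPINC1 (antithrombin), SERPIND1 (heparin cofactor II) and SERPING1 (the inhibitor of complement C1) lay under the array medians in both groups, with log2 fold changes of 0.14, -0.060 and -0.053. SERPINF2, the plasma inhibitor of plasmin, averaged 6.42 ± 0.11 in CRB3-expressing cells, against 6.19 ± 0.098 in vector control cells (SD, n = 3 each; adjusted p = 0.191 from limma). The angiogenesis inhibitor SERPINF1 and the pancreatic serpin SERPINI2 had log2 fold changes of -0.042 and -0.080. In all, 15 of the 29 genes had means between 3.42 and 5.65, under the array medians. None of these was called and none had an unadjusted p under 0.05 from limma, and whether their signal stood above background was not tested.

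Many serpin genes lie next to each other, and no more than 1 in each group of measured neighbours was called. The 9 measured clade B genes on chromosome 18, in the order of RefSeq from SERPINB5 to SERPINB8, held SERPINB7 as the only call, and the other 8 had log2 fold changes between -0.079 and 0.23. The nearest measured serpin genes on either side of SERPINB7 were SERPINB11 at 0.12 and SERPINB10 at -0.068. Serpin genes without a reading here may lie between measured neighbours, so the immediate neighbours of a called gene may be missing. On chromosome 6, SERPINB1 rose while SERPINB9 had a log2 fold change of 0.067. Among 8 measured clade A genes on chromosome 14, SERPINA1 was the only call, with SERPINA6 at 0.21 and SERPINA9 at 0.099 beside it, and SERPINA3 at the far end had the second lowest value. Of the 8 neighbours of SERPINB7, SERPINB5, SERPINB8 and SERPINB13 had means above the array medians and the other 5 did not.

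**Figure D4:**
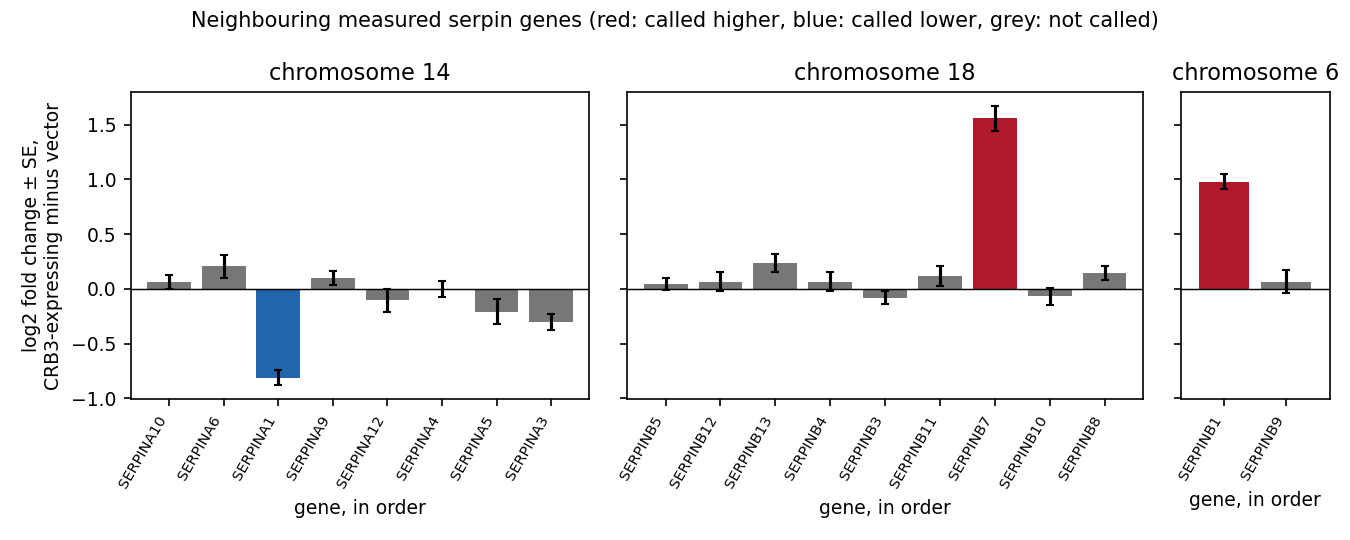
Log2 fold change of CRB3-expressing over vector control cells (y axis; bars are the estimate and whiskers the SE from limma) of measured serpin genes in their order along chromosomes 14, 18 and 6 (x axis). One gene in each group of neighbours was called, SERPINA1 at -0.81, SERPINB7 at 1.56 and SERPINB1 at 0.98.

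Genes that act with serpins were read from 4 lists, chosen with earlier results of these data known, each gene in its brightest probe set. Of 53 measured proteases of the kinds that serpins inhibit, 6 were called higher, 1 lower and 46 in neither direction, with a median log2 fold change of 0.034. Over all 19775 genes, 1.43% were called higher and 0.465% lower. The kallikreins KLK10, KLK7 and KLK5, serine proteases of the skin and glands, rose by log2 fold changes of 3.53, 2.30 and 1.70, and PRSS8, the membrane protease prostasin, rose by 1.12 (limma, SE 0.074 and adjusted p = 5.48e-05). The secreted protease HTRA1 fell by 0.64 on the log2 scale (SE 0.061). KLK5 averaged 8.69 ± 0.11 in CRB3-expressing cells, against 6.98 ± 0.38 in vector control cells (SD, n = 3 each). A second KLK10 probe set stood at 0.52 and was not called, while both of KLK7 were.

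The 2 plasminogen activators that SERPINE2 inhibits were looked up after the values were seen. PLAU, which encodes urokinase, averaged 8.56 ± 0.092 in CRB3-expressing cells, against 8.09 ± 0.052 in vector control cells (SD, n = 3 each; log2 fold change 0.47, adjusted p = 0.00667 from limma). PLAT, which encodes tissue plasminogen activator, averaged 8.85 ± 0.036 in CRB3-expressing cells, against 9.26 ± 0.045 in vector control cells (SD, n = 3 each; log2 fold change -0.41, adjusted p = 0.00639 from limma). The groups did not overlap for either gene, the signs were opposite, and neither fold change reached 1.5.

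Of 40 measured protease inhibitors that are not serpins, 6 were called higher, 1 lower and 33 in neither direction, with a median log2 fold change of -0.022. By the same rule, 1.43% of all genes were called higher and 0.465% lower. The secreted elastase inhibitors PI3 (elafin) and SLPI rose by log2 fold changes of 3.46 and 1.41, the kallikrein inhibitor SPINK6 by 2.54 and the cystatin CST6 by 1.22 (a second CST6 probe set, 0.47, was not called). TIMP1, an inhibitor of matrix metalloproteinases, fell by 0.64 on the log2 scale (SE 0.063). SLPI averaged 12.40 ± 0.092 in CRB3-expressing cells, against 10.99 ± 0.082 in vector control cells (SD, n = 3 each), so inhibitors of neutrophil elastase lay on both sides, with PI3, SLPI and SERPINB1 higher and SERPINA1 lower.

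Of 28 measured genes listed as receptors and cofactors of serpins or their proteases, 2 were higher and 2 were lower. The list also holds heparan sulfate enzymes such as EXT1 and the receptor chaperone LRPAP1. Among all genes, 1.43% were called higher and 0.465% lower. PLAUR, the urokinase receptor, rose by 0.70 on the log2 scale (SE 0.066) and F3, tissue factor, by 0.59 (SE 0.072), just above the fold threshold, which is 0.58 on this scale, and the count of 2 became 1 without CRB3-expressing replicate 1 and without vector control replicate 2. THBD, the thrombin receptor thrombomodulin, fell by 0.67 on the log2 scale (SE 0.073) and the proteoglycan DCN fell by 0.76 (SE 0.095). Of their other probe sets, 2 of THBD, 1 of PLAUR and 5 of DCN were not called. DCN is also one of 5 fibroblast markers, and the other 4 were not called, with log2 fold changes between -0.078 and 0.098. The summed log2 values of all 5, DCN included, ran from 28.5 to 28.7 in CRB3-expressing cells, against 29.2 to 29.5 in vector control cells. Since DCN enters this sum, the sum is no separate reading of fibroblast markers. LRP1, the main clearance receptor of serpin complexes, had a log2 fold change of -0.084.

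The 28 measured genes of the collagen folding list held no call, and their median log2 fold change was 0.010. Besides chaperones and enzymes that fold procollagen with SERPINH1, the list holds genes of its export and later processing, such as MIA3 and PCOLCE. At an unadjusted p under 0.05 from limma, 6 of the 28 (21.4%) were past the test, against 18.8% of all genes. That unadjusted share was 24.5% for the proteases, 40% for the other inhibitors and 42.9% for the receptors and cofactors. A t test with an ordinary pooled variance also called 0 of the 28, while limma without a fold threshold called 1 higher. The smallest p-values were those of P3H2, a prolyl hydroxylase (log2 fold change 0.50, adjusted p = 0.00368 from limma, under the fold threshold), and of the lysyl hydroxylase PLOD2 (log2 fold change 0.27, adjusted p = 0.0864). Over all 19775 genes, 1.43% were higher and 0.465% were lower by the same rule.

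**Figure D5:**
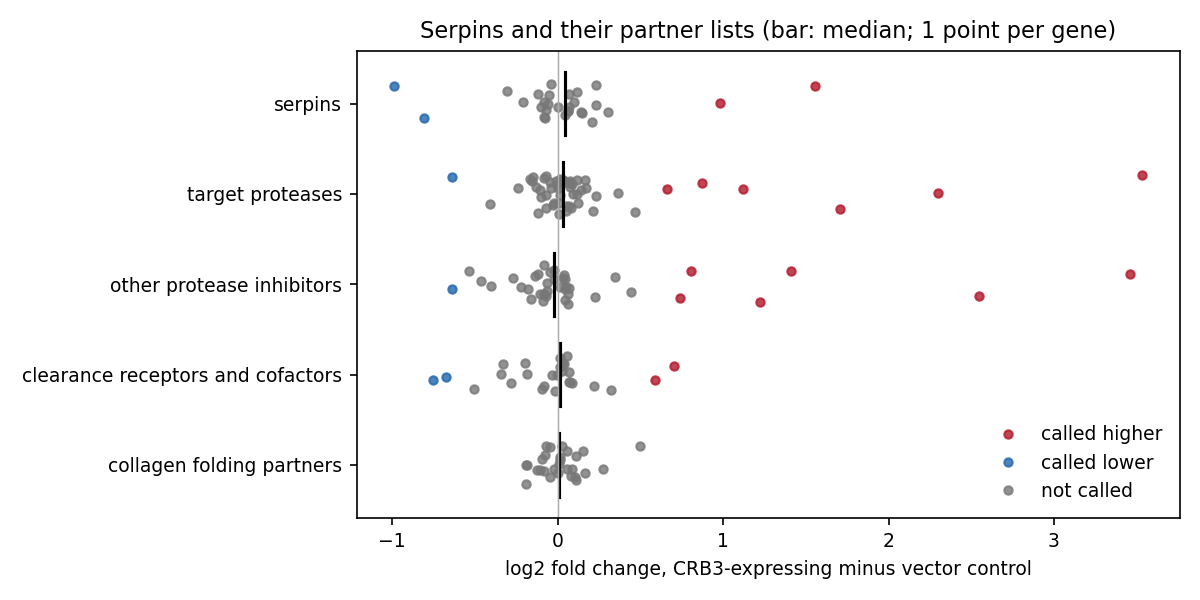
The x axis gives the log2 fold change of CRB3-expressing over vector control cells for the serpin genes and for 4 lists of genes that act with them (y axis); points are genes (red for higher, blue for lower, grey for no call) and black bars are medians. The proteases and the other inhibitors reach to 3.53 and 3.46 with 6 genes called higher in each, the serpins reach to 1.56, and the collagen folding list holds no call.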

How the data were processed

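The deposited values are log2 intensities of 54613 probe sets on 6 arrays (3 per group), made by the authors with RMA (background correction, quantile normalization and summary per probe set), so between-array differences in overall brightness are removed before any test. The versions of RMA and of limma, both named in the submitters' processing notes, are not given in the sources used here. Left out were 62 array controls. The series has no probe-level files here, so no detection call was made.

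A linear model per probe set (limma 3.58.1, R 4.3.3, statmod 1.5.0) was fitted to all 6 arrays with the group as the only term. Its empirical Bayes p-values were adjusted by Benjamini-Hochberg over all 54613 probe sets, and calls took 0.05 as the limit of the adjusted p and 1.5 as the least fold change. The procedure was tested on simulated data. Symbols came from the platform annotation, where 41091 probe sets have 1 symbol, updated through RefSeq. Array values are given for serpins with a called probe set or a mean of at least 8, and of each partner list up to 4 called genes per direction are named, or, with no call, those of the 2 lowest p-values. The members, lists and rule were chosen with earlier results of these data known. Sequences of the reactive loops had been planned, and promoters are printed in their place. The alternatives were another variance model, scaling, filter on dim probe sets (means of 5 or 6), fold threshold, reading of a gene and left-out arrays.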

Additional observations from a re-analysis of the deposited data

How the results depend on the processing

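The 4 serpin genes kept their calls when each array was left out in turn, under another variance model, scaling, array weights or filter on dim probe sets (means of at least 5 or 6), and no direction reversed under any alternative. The replicate numbers did not pair the samples (the deviations of same-numbered samples correlated at -0.085, 0.064 and 0.029), and with the replicate block 2 serpin genes were higher and 2 lower, as without it. At a fold above 2, 1 serpin gene and 1 serpin probe set were higher and 0 of each lower, and of the partner lists 0 proteases, 0 other inhibitors and 0 cofactors were lower and 0 cofactors higher. With treat, 2 serpin probe sets were higher, 0 serpin probe sets and 0 serpin genes lower, and the same 3 lists had 0 lower and the cofactors 0 higher. Without probe sets of the types shared between transcripts (which leaves no value for SERPINB7), 1 serpin gene was higher and 1 lower, SERPINA1 stood at -0.081, 3 proteases and 1 cofactor were higher and 0 cofactors lower. With the mean over a gene's probe sets, 0 serpin genes and 0 cofactors were lower, and the log2 fold change was -0.43 for SERPINA1 and -0.49 for SERPINE2, since dim probe sets enter the mean. Without a fold threshold, 2 proteases, 4 other inhibitors and 4 cofactors were lower and 1 collagen folding gene higher. An ordinary pooled variance gave 3 proteases higher and 1 cofactor in each direction, and centring on the median 1 cofactor higher; the causes were not tested. Leaving out 1 array gave 1 to 2 cofactors and 5 to 6 proteases higher, and the mean over a gene's probe sets gave 4 proteases higher. Over all alternatives, the highest adjusted p of SERPINB7 was 0.0415, from a t test with an ordinary pooled variance. That of SERPINB1 was 0.0353, from treat against a 1.5-fold change, so these test unlike things. The lowest were 1.14e-06 for SERPINB7 and 1.74e-07 for SERPINB1, from limma with another variance model. For SERPINA3 and SERPINI1 the lowest adjusted p from limma was 0.0136 and 0.0189, and both genes stayed under the fold threshold.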

Other observations

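Further inhibitors and proteases of the partner lists passed the test besides those named in the report. WFDC12, a whey acidic protein domain inhibitor related to SLPI and PI3, averaged 7.43 ± 0.16 in CRB3-expressing cells, against 6.63 ± 0.11 in vector control cells (SD, n = 3 each; log2 fold change 0.80, adjusted p = 0.00173 from limma). TIMP2, an inhibitor of matrix metalloproteinases, was higher by 0.74 (SE 0.075), with all 3 of its probe sets called, while its relative TIMP1 was lower, and TIMP3 and TIMP4 were not called. The kallikrein KLK8 was higher by 0.87 (SE 0.11) in 1 of its 2 probe sets, and the protease PRSS23 by 0.66 (SE 0.13, adjusted p = 0.0314 from limma) in 1 of its 4 probe sets, whose lowest log2 fold change was -0.048.

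Neither serpin pseudogene was called. SERPINA2 averaged 3.90 ± 0.13 in CRB3-expressing cells, against 3.93 ± 0.12 in vector control cells, and SERPINB9P1 averaged 4.87 ± 0.048 in CRB3-expressing cells, against 4.83 ± 0.049 in vector control cells (SD, n = 3 each).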
